A study of Arabidopsis thaliana with 12 samples.

Results

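The genotype by iron interaction was examined gene by gene in Arabidopsis roots. It is the log2 iron response of the clf mutant (−Fe over +Fe) minus that of wild type, and it uses all 12 libraries of the series, 3 in each of 4 groups. The groups were wild type (Col-0) and the clf-29 mutant, each kept for 12 days on B5 medium and then for 3 days with sufficient iron (+Fe) or without iron (−Fe), and only root tissue was taken. All mutant libraries came from 1 T-DNA allele, and the study describes the replicates as biological. A positive difference means that a gene was raised more, or lowered less, by iron deficiency in clf. Of 32678 genes in the count table, 20168 had enough reads to be tested.

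CLF is a methyltransferase of Polycomb repressive complex 2 (PRC2), which places the repressive mark H3K27me3 on histones and keeps many developmental genes silent. Iron-deficient Arabidopsis roots induce FIT, a bHLH factor that acts with the subgroup Ib factors bHLH38, bHLH39, bHLH100 and bHLH101 to raise the ferric reductase FRO2 and the transporter IRT1. PYE controls another set of genes, the IMA peptides promote the uptake response, and genes for iron storage are shut down.

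The libraries held 18658428 to 28281420 counted reads. CLF checked the labels, with 43.6 to 55.1 CPM (counts scaled to the normalized library size) in the wild-type libraries and 10.3 to 15.8 CPM in the clf libraries. In each group, the library with the lowest mean correlation of log2 CPM with its replicates was marked as standing apart, so the rule itself fixed 1 per group. These were replicate 1 of wild type +Fe, wild type −Fe and clf −Fe, and replicate 2 of clf +Fe. Their mean correlations were 0.9336 to 0.953, against 0.9588 to 0.9703 in the other libraries. In these 4 libraries the clock gene CCA1 lay at 2.97 to 6.67 CPM, against 26.7 to 48.2 CPM in the other 8. FRO2 was also lowest there within wild type and within clf +Fe. Beside the lists, medians are also given without these 4 libraries, or as each of the 12 libraries was left out in turn, where they moved.

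No gene passed an adjusted p of 0.05 for the difference between the iron responses in edgeR's quasi-likelihood test, in either direction (0% of genes tested). At an unadjusted p of 0.05, 160 genes were more positive and 160 more negative in clf, each 0.793% of the genes tested. Even together, these shares lie under the fraction of 0.05 that this threshold would pass if no gene differed. Over all tested genes, these counts are therefore no excess of genes. Counts within the lists below were not tested as sets. DESeq2 called 0 genes more positive and 3 more negative, AT5G41290, WRKY59 and IMA2. The same edgeR model called 1171 genes raised (5.81%) and 1130 lowered (5.6%) by iron deficiency averaged over the genotypes. The standard error (SE) of a difference had a median of 0.35 on the log2 scale, and for 10314 genes the 95% interval lay within 1 log2 unit of 0. Without the 4 libraries that stood apart, edgeR called 348 genes more positive and 103 more negative at an adjusted p of 0.05, with 2 libraries left in each group. Leaving out libraries chosen for a low correlation with their replicates narrows the spread within groups by itself. With the 4 libraries as a term in the model, edgeR called 0 and 0. The differences that follow are therefore values with their errors. None of them passed the adjusted threshold in edgeR over the 12 libraries, whereas DESeq2 called the 3 genes above and limma's voom with sample quality weights called 8 more positive and 3 more negative.

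**Figure D1:**
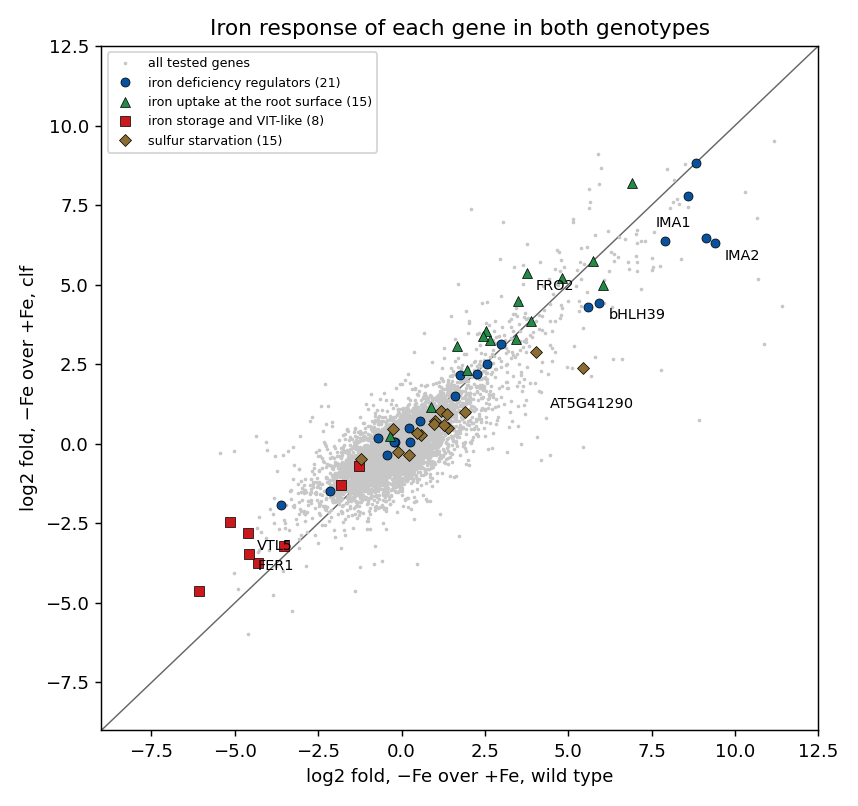
Iron response of each of the 20168 tested genes, as log2 fold of −Fe over +Fe in wild type (x axis) and in clf (y axis), with 4 gene lists in colour and the line of equal response. IMA2, IMA1, bHLH39 and AT5G41290 lie below the line, and FRO2 and all 8 iron storage genes lie above it.

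Among the regulators, the IMA peptide genes had the most negative differences. IMA1 and IMA2 are neighbours on chromosome 1 (TAIR10.1, chr1:17385707-17386485 and chr1:17382998-17383830), both annotated as uncharacterized proteins in RefSeq. The last 30 coding bases before the stop codon, which encode the end of the peptide that defines the family, are given to make clear how alike the genes are, with the 19 bases shared by all 3 genes in capitals. They lie on the plus strand at chr1:17385938-17385967 (IMA1), chr1:17383237-17383266 (IMA2) and chr2:13108179-13108208 (IMA3).
IMA1: GACagTGgCTaTGAttaTGCtCCtGCtGCg
IMA2: GACagTGgCTaTGAttaTGCtCCtGCtGCg
IMA3: GACgaTGaCTgTGAcgtTGCaCCgGCgGCt
The stretch is identical in IMA1 and IMA2. Over the whole transcripts, 10 of the 784 words of 50 bases in IMA2 also occur in IMA1, so few reads could be assigned to either gene.

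IMA2 was at 0.127, 0.209 and 0.144 CPM in wild type +Fe (3, 4 and 3 reads) and at 144.8, 99.5 and 87.6 CPM in wild type −Fe. In clf it was at 1.13, 0.821 and 1.68 CPM with +Fe and at 110.9, 93.9 and 81.4 CPM with −Fe. All clf libraries were above all wild-type libraries with sufficient iron, and the genotypes overlapped under deficiency. The difference between the responses was −3.11 (SE 0.47, edgeR adjusted p = 0.205), and −3.03 without the 4 libraries that stood apart. With sufficient iron, IMA2 was 7.59-fold higher in clf (edgeR adjusted p = 0.0319, as for 0.0645% of genes tested). All clf +Fe libraries lay above all wild-type +Fe libraries in 904 genes (4.48%) and below them in 876 (4.34%).

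IMA1 followed the same order. It was at 0, 0.209 and 0.0959 CPM in wild type +Fe, which is 0, 4 and 2 reads, and at 0.708, 0.274 and 0.561 CPM in clf +Fe. Under deficiency wild type reached 38.1 to 76.5 CPM and the mutant 37.5 to 56.2 CPM, and the difference was −2.66 (SE 0.78). The defensin-like gene AT1G13609 was likewise at 0, 0.157 and 0.0959 CPM in wild type +Fe and at 0.602, 0.228 and 0.280 CPM in clf +Fe, with −Fe levels of 98.5 to 113.5 CPM and, in the mutant, 80.5 to 109.9 CPM. Its difference was −2.38 (SE 0.68), and it rests on few reads in wild type +Fe.

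Of the subgroup Ib bHLH genes, bHLH39 and bHLH101 were also higher in clf with sufficient iron, without overlap. bHLH39 was at 2.36, 7.04 and 5.95 CPM in wild type +Fe and at 15.8, 9.99 and 17.3 CPM in clf +Fe. Under deficiency the wild-type mean was 311.3 CPM and the clf mean 311.1 CPM, and the difference was −1.50 (SE 0.47). bHLH101 was at 0.844 to 2.29 CPM in wild type +Fe and at 2.90 to 3.47 CPM in clf +Fe, with a difference of −1.29 (SE 0.42). bHLH38 had a difference of −1.54 (SE 0.91) and bHLH100 one of −0.81 (SE 0.84), and their +Fe libraries overlapped. The value of bHLH100 turned to 0.39 without replicate 3 of clf +Fe. OPT3, a transporter that loads iron into the phloem, lay at 16.4 to 37.6 CPM in wild type +Fe and at 46.4 to 81.0 CPM in clf +Fe, with a difference of −1.16 (SE 0.49). FIT itself had a difference of 0.36 (SE 0.85), which turned to −0.10 without replicate 1 of wild type −Fe.

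**Figure D2:**
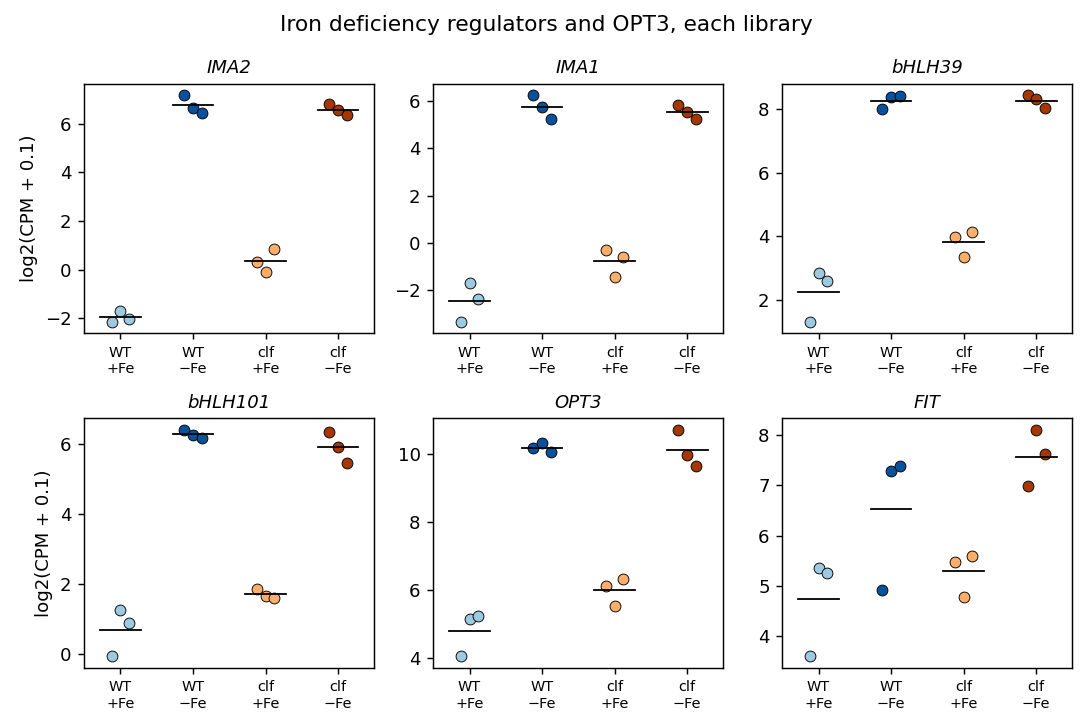
Level of IMA2, IMA1, bHLH39, bHLH101, OPT3 and FIT in each of the 12 libraries, as log2(CPM + 0.1), by group, with lines at the mean of the 3 libraries. In the first 5 genes the clf +Fe libraries lie above all wild-type +Fe libraries while the −Fe libraries overlap, and FIT overlaps in both conditions.

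Of the 21 tested iron deficiency regulators, 10 were more positive in clf and 11 more negative, and the list's median was −0.01 against 0.01 for all tested genes. At an unadjusted p of 0.05, 0 were more positive and 4 (19%) more negative, against 0.793% of all tested genes in each direction. BTS, a ubiquitin ligase that represses the response, had a difference of −0.03 (SE 0.46) and PYE one of −0.08 (SE 0.28). IMA3 had no read in either genotype with sufficient iron and overlaps another annotated gene, so no difference is given for it. The G-box CACGTG, a hexamer that reads the same on both strands and is bound by many bHLH factors, is shown in capitals for the Ib genes that hold it between 250 bases before and 50 bases after the annotated start (TAIR10.1). The stretches lie at chr3:21085325-21085354 (bHLH38) and chr2:17199528-17199557 (bHLH100), both read from the minus strand.
bHLH38: cataggcttcgaCACGTGccaacctatgcc
bHLH100: aaagtgctcaacCACGTGtcaacgcatgtc
Of 38094 gene windows of this kind, 2456 (6.45%) hold these letters. Those of bHLH39, bHLH101, IMA1 and IMA2 do not.

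Another set of genes was induced by iron deficiency in wild type, where 2.28% of genes tested were called raised, and had smaller folds in clf, with the genotypes apart under deficiency. AT5G41290, a receptor-like protein kinase-related gene on chromosome 5 (chr5:16512154-16513671), had the smallest p of all genes. It was at 0.717, 0.835 and 0.863 CPM in wild type +Fe and at 14.9, 14.7 and 14.3 CPM in wild type −Fe. In clf it was at 0.744, 0.821 and 0.654 CPM with +Fe and at 2.90, 2.21 and 1.77 CPM with −Fe. Its difference was −2.55 (SE 0.32, edgeR adjusted p = 0.0928), and under deficiency it was 6.39-fold higher in wild type (edgeR adjusted p = 0.000684, with 0.0248% of genes called lower in clf in that condition). All clf −Fe libraries lay below all wild-type −Fe libraries in 6.28% of genes and above them in 7.65%. Its neighbour AT5G41280, named because of this position after its values were seen, had a difference of −2.47 (SE 0.71). The neighbours share 50 of the 1158 words of 50 bases in AT5G41290.

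WRKY59, a WRKY factor gene, had no read in wild type +Fe and lay at 2.47, 2.57 and 2.95 CPM in wild type −Fe, at least 56.6-fold higher if the floor is set at 3 reads over the group. In clf it was at 0.460, 0.411 and 0.187 CPM with +Fe and at 0.604, 0.691 and 0.499 CPM with −Fe, a 1.7-fold ratio of the means. AT3G50200, a DUF247 gene, was at 0.574 to 0.802 CPM in wild type +Fe and at 3.08 to 3.20 CPM in wild type −Fe, while its clf libraries lay at 0.748 to 1.17 and 1.17 to 1.41 CPM. Its difference was −1.91 (SE 0.40). AT4G27850, a glycine-rich protein gene, reached 4.90 to 8.57 CPM in wild type −Fe and 1.29 to 1.65 CPM in clf −Fe, with a difference of −2.71 (SE 0.69). It overlaps another annotated gene by 1487 bases, and the strand setting of the counting is not given. ARD3, an acireductone dioxygenase of methionine salvage, had no read in wild type +Fe and 18.3, 16.7 and 9.71 CPM in wild type −Fe, at least 317-fold higher by the same floor. In clf −Fe it lay at 0.766, 0.184 and 0.181 CPM.

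In 4 further genes among the 10 most negative by p, the −Fe level in clf was below that of +Fe. CYP78A5, a cytochrome P450 that promotes organ growth, was at 1.77 to 1.97 CPM in wild type +Fe and 2.76 to 2.80 CPM in wild type −Fe, against 3.15 to 5.09 and 1.61 to 2.22 CPM in clf. Its difference was −1.58 (SE 0.36), and iron conditions apart in both genotypes in opposite directions were found in 0.104% of genes. KDR, a small bHLH protein gene, had a difference of −1.43 (SE 0.37), the F-box gene AT4G22030 one of −3.38 (SE 0.77) and the putative membrane lipoprotein gene AT3G42725 one of −2.20 (SE 0.57). The last pair were at or under 2.05 CPM in every library.

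The genes with the smallest p for a more positive response in clf took several forms. ZF14 and BGLU18 fell under deficiency in wild type, while their clf libraries overlapped between the iron conditions. AT5G04810 fell in both genotypes. AT4G39675 fell in wild type and rose in clf, and AT1G35625 lay higher in clf than in wild type under deficiency. ZF14, a MATE efflux transporter gene, was at 19.2, 30.6 and 29.9 CPM in wild type +Fe and at 4.01, 6.72 and 8.06 CPM in wild type −Fe. In clf it was at 17.78, 26.92 and 15.65 CPM with +Fe and at 12.2, 13.5 and 19.2 CPM with −Fe. The −Fe groups did not overlap, and the difference was 1.66 (SE 0.43). BGLU18, a beta-glucosidase that releases abscisic acid from its glucose ester, lay at 0.812 to 1.78 CPM in wild type −Fe and at 2.63 to 6.58 CPM in clf −Fe, with a difference of 2.13 (SE 0.60). AT5G04810, a pentatricopeptide repeat gene, fell in both genotypes, from 42.2 to 52.3 down to 16.4 to 18.6 CPM in wild type and from 35.5 to 48.4 down to 24.5 to 27.8 CPM in clf, where 2.14% and 0.491% of genes were called lowered. Its difference was 0.79 (SE 0.20).

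CSLB03, a cellulose synthase-like gene, differed between the genotypes in both conditions, with 1.97 to 3.84 CPM in wild type +Fe, 0.541 to 1.21 CPM in wild type −Fe, 5.51 to 7.53 CPM in clf +Fe and 6.58 to 7.65 CPM in clf −Fe. Its difference was 1.69 (SE 0.44), and under deficiency it was 7.66-fold higher in clf (edgeR adjusted p = 0.0054, with 0.109% of genes called higher in clf in that condition). The RING/U-box gene AT1G35625 lay at 0.0451 to 0.162 CPM in wild type −Fe and at 2.35 to 3.31 CPM in clf −Fe (edgeR adjusted p = 0.016), and its difference was 3.39 (SE 0.79). AT4G39675, an uncharacterized gene, was at 6.54 to 15.9 CPM in wild type −Fe and at 47.7 to 73.4 CPM in clf −Fe, with a difference of 1.79 (SE 0.54). The differences of AT3G16750, MLO7 and DEG5 were 2.02 (SE 0.58), 1.46 (SE 0.45) and 1.36 (SE 0.42). The microRNA gene MIR850 had no read in wild type −Fe and 0.829 to 1.18 CPM in clf −Fe, at least 23.3-fold higher by the floor of 3 reads, and it overlaps another annotated gene by 221 bases.

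**Figure D3:**
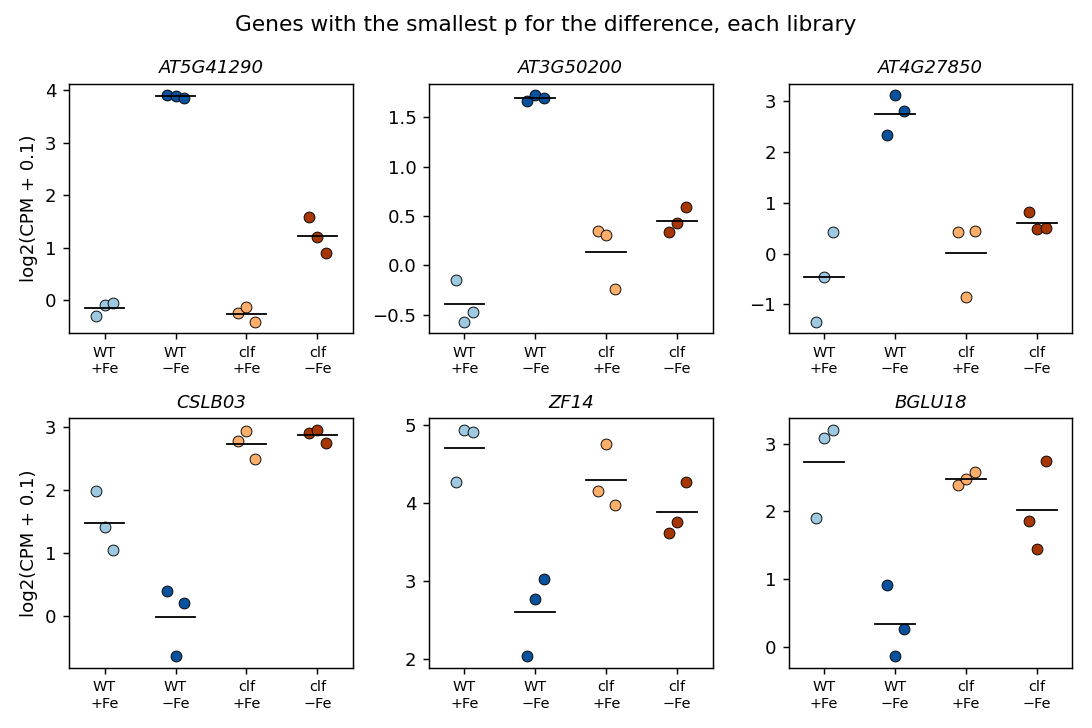
Level of AT5G41290, AT3G50200, AT4G27850, CSLB03, ZF14 and BGLU18 in each of the 12 libraries, as log2(CPM + 0.1), by group, with lines at the mean of the 3 libraries. The first 3 genes rise more in wild type −Fe than in clf −Fe, and in the other 3 the wild-type −Fe libraries lie below all other libraries.

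Over the 160 genes more positive at an unadjusted p of 0.05, 67 had responses of opposite sign in the genotypes, 77 had a response of the same sign that was smaller in clf and 16 one that was larger. Of the 160 more negative genes, 89, 62 and 9 had these forms. As shares these were 41.9%, 48.1% and 10% of the more positive and 55.6%, 38.8% and 5.62% of the more negative genes. Over all tested genes, 24.1%, 44% and 31.9% had these forms. Both sets were chosen by the p of the difference itself, so their forms are a description only. The genotypes lay further apart under deficiency than with sufficient iron in 126 of the more positive and in 109 of the more negative genes, against 12282 of all 20168 tested genes. Among the 160 more positive genes, 62 were also called lowered on average and 14 raised, whereas among the 160 more negative genes 50 were called raised and 4 lowered. Over all tested genes, 5.6% were called lowered and 5.81% raised.

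Genes lowered by iron deficiency on average had a smaller response of the same sign in clf in 76.6% and a larger one in 23.3%. For genes raised on average these shares were 59.5% and 40.5%. The lean was also present over all tested genes, with 44% smaller, 31.9% larger and 24.1% of opposite sign. Of the 1130 genes lowered on average, 867 (76.7%) were more positive in clf, that is, fell less, with a median difference of 0.23. Without replicate 3 of clf −Fe the median of these genes was 0.14. In the 962 genes called lowered anew by that fit, the share was 59.8% and the median 0.09. Of all tested genes, 50.9% were more positive and the median was 0.01. Of the 461 genes lowered 2-fold or more, 376 were more positive with a median of 0.41, and this median was 0.76 without the 4 libraries that stood apart and 0.25 without replicate 3 of clf −Fe. Of the 1171 genes raised on average, 474 (40.5%) were more positive, with a median of −0.06. The median of these genes ran from −0.13 to 0.01 as each library was left out. In genes called raised anew, the share was 25.1% without replicate 1 of wild type −Fe and 48.9% without replicate 3 of clf −Fe. With groups of unequal size, calling genes by the average can itself move such a share, so these shares decide nothing. The median within-group SD of log2 CPM was 0.278 and 0.293 in the wild-type groups and 0.225 and 0.256 in the clf groups, and its part in these counts was not tested.

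Over the 12 libraries, iron storage genes were the list with the highest median difference. All 8 tested genes for ferritins and vacuolar iron transporters were more positive in clf, with a median of 0.85, and none reached an unadjusted p of 0.05. The median was 0.52 without replicate 3 of clf −Fe and 1.13 without the 4 libraries that stood apart, where the photosynthesis list was higher. FER1, the main ferritin gene of leaves and roots, was at 79.3, 61.8 and 56.2 CPM in wild type +Fe and at 30.2, 30.8 and 28.7 CPM in clf +Fe. Under deficiency it was at 2.51, 2.62 and 3.08 CPM in wild type and at 0.685, 2.76 and 4.72 CPM in clf. The +Fe groups did not overlap, and the difference was 1.12 (SE 0.63). FER1 overlaps another annotated gene by 1334 bases. VTL1, a vacuolar iron transporter-like gene, lay at 11.3 to 18.3 CPM in wild type +Fe and at 5.28 to 7.03 CPM in clf +Fe, with a difference of 1.43 (SE 1.06). Under deficiency VTL1 was at 0.445, 0.0451 and 0.184 CPM in wild type and at 0, 0.553 and 0.227 CPM in clf, so it rests on few reads there. VTL5 had a difference of 1.78 (SE 0.84). With sufficient iron it was at 80.7, 280.7 and 249.8 CPM in wild type and at 124.2, 126.1 and 111.3 CPM in clf. Here replicate 1 of wild type +Fe lay below the clf +Fe libraries and the others above them. Under deficiency VTL5 was at 10.16, 5.594 and 9.483 CPM in wild type and at 3.988, 19.3 and 28.02 CPM in clf. In that condition replicate 1 of clf lay below the wild-type libraries and the other clf libraries above them.

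Of 15 tested genes for iron uptake at the root surface, 11 were more positive in clf, with a median of 0.59. At an unadjusted p of 0.05, 1 was more positive (6.67%, against 0.793% of all tested genes). The median was 0.32 without the 4 libraries that stood apart and ran from 0.16, without replicate 2 of clf +Fe, to 0.73 as each library was left out. That gene was NRAMP1, a manganese and iron transporter, at 103.0, 122.8 and 138.2 CPM in wild type −Fe and at 172.0, 214.1 and 198.4 CPM in clf −Fe. Its difference was 0.59 (SE 0.21). FPN2, a vacuolar metal transporter, lay at 34.8 to 97.3 CPM in wild type −Fe and at 137.0 to 170.9 CPM in clf −Fe, with a difference of 0.93 (SE 0.49).

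FRO2 was at 28.4, 223.6 and 250.4 CPM in wild type +Fe and at 676.9, 2860 and 3273 CPM in wild type −Fe. In clf it was at 98.2, 10.6 and 147.5 CPM with +Fe and at 3239, 3994 and 3237 CPM with −Fe. The groups overlapped in both conditions, and the difference of 1.59 had an SE of 1.28. IRT1 had a difference of 1.01 (SE 1.32), and its 95% interval ran from −1.90 to 3.92. In FRO2 and IRT1 the library that stood apart was the lowest of its group in wild type +Fe, wild type −Fe and clf +Fe.

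**Figure D4:**
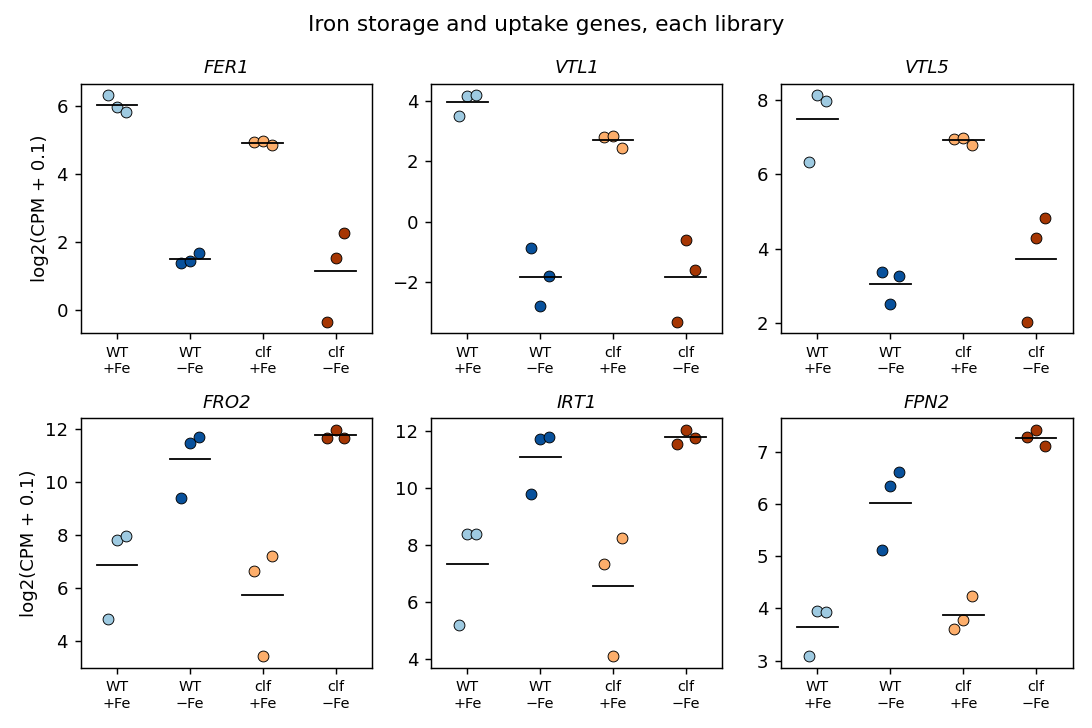
Level of FER1, VTL1, VTL5, FRO2, IRT1 and FPN2 in each of the 12 libraries, as log2(CPM + 0.1), by group, with lines at the mean of the 3 libraries. FER1 and VTL1 lie lower in clf than in wild type with sufficient iron, and FPN2 lies higher in clf under deficiency.

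The lists of FIT-dependent and PYE-dependent genes were the study's own and so are not independent evidence of a direction. Of 90 FIT-dependent genes, 76 were more positive in clf, with a median of 0.39. At an unadjusted p of 0.05, 3 (3.33%) were more positive and 0 more negative, against 0.793% of all tested genes in each direction. The median was 0.29 without the 4 libraries that stood apart and ran from 0.14, without replicate 1 of wild type −Fe, to 0.69 as each library was left out. The 3 genes were NRAMP1, the methionine salvage isomerase MTI1 with 1.00 (SE 0.44) and the nitrate transporter NRT1.8 with 1.84 (SE 0.75). Of 85 PYE-dependent genes, 46 were more positive, with a median of 0.06. At an unadjusted p of 0.05, 0 were more positive and 6 (7.06%) more negative, among them IMA1, bHLH39 and bHLH101. The median of the PYE-dependent genes was −0.06 without the 4 libraries that stood apart and −0.04 without replicate 3 of wild type +Fe.

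In methionine salvage and SAM synthesis, 9 of 10 genes were more positive with a median of 0.43, and the exception was ARD3. The median was 0.16 without replicate 1 of wild type −Fe. SAM2, a SAM synthetase, lay at 622.9 to 729.7 CPM in wild type −Fe and at 894.0 to 1018 CPM in clf −Fe, with a difference of 0.56 (SE 0.20). In the list of aquaporins 15 of 18 were more positive with a median of 0.51, and none reached an unadjusted p of 0.05. This median was 0.16 without replicate 2 of clf −Fe, and 0.70 without the 4 libraries that stood apart. In that fit 8 of the 18 were more positive at an adjusted p of 0.05 in edgeR, against 348 of 19956 genes. With the 4 libraries as a term, the median was 0.21 and no gene passed. Of 13 genes of the abscisic acid and drought response, 10 were more positive with a median of 0.38, and the median was 0.13 without the 4 libraries that stood apart and 0.01 without replicate 1 of wild type +Fe. The dehydrin gene RAB18 was at 4.60 to 6.46 CPM in wild type +Fe and at 0.654 to 1.35 CPM in clf +Fe, with a difference of 1.65 (SE 0.60), and the dehydrin gene ERD10 had a difference of 0.66 (SE 0.27). HAI1, a phosphatase that restrains abscisic acid signalling, had a difference of 1.67 (SE 0.75).

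Of 15 genes for sulfate uptake and sulfur starvation, 13 were more negative with a median of −0.37, which ran from −0.59 to −0.22, without replicates 1 and 3 of wild type −Fe in turn. LSU2, a small protein induced by low sulfur, lay at 28.3, 58.6 and 63.9 CPM in wild type −Fe and at 23.2, 32.0 and 32.9 CPM in clf −Fe, and its difference was −0.89 (SE 0.37). BGLU28, a thioglucosidase, had a difference of −3.06 (SE 1.39) at no more than 5.89 CPM in any library. Of 10 salicylate and immune genes, 9 were more negative with a median of −0.66, with WRKY70, a factor of salicylate signalling, at −1.33 (SE 0.77), and the median was −0.26 without replicate 2 of clf +Fe. In aliphatic glucosinolate synthesis 14 of 15 genes were more negative with a median of −0.36, or −0.10 without replicate 1 of wild type +Fe. This list lay lower in clf in both conditions, with a median log2 fold of clf over wild type of −0.62 with +Fe and −1.12 with −Fe. Its member UGT74C1, a glucosyltransferase, lay at 23.8 to 28.7 CPM in wild type −Fe and at 11.04 to 12.88 CPM in clf −Fe. That is a gap between the genotypes under deficiency and not a difference between the responses. Suberin synthesis had 12 of 14 more negative with a median of −0.27, or −0.02 without replicate 1 of wild type +Fe. The proteasome subunits had 29 of 34 more negative with a median of −0.13, which was −0.07 without replicate 3 of wild type +Fe and −0.29 without the 4 libraries that stood apart.

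The medians of the root hair, Casparian strip, meristem and photosynthesis lists changed sign with the libraries used. The median of root hair and epidermis genes was −0.16 and ran from −0.60, without replicate 1 of wild type −Fe, to 0.10, without replicate 1 of wild type +Fe. That of the Casparian strip was 0.00 and ran from −0.27, without replicate 2 of clf −Fe, to 0.22, without replicate 2 of wild type −Fe. In the meristem list 2 of 11 genes were more positive with a median of −0.11, against 7 of 11 and 0.16 without the 4 libraries that stood apart and a median of 0.20 without replicate 1 of wild type −Fe. The clock list had 16 of 20 genes more positive with a median of 0.23, which ran from 0.09, without replicate 1 of clf −Fe, to 0.45, without replicate 2 of clf +Fe. The photosynthesis list, which marks green tissue, had a median of −0.04 over 12 libraries, 1.49 without the 4 that stood apart and 1.08 without replicate 1 of wild type −Fe. The floral and homeotic genes that PRC2 silences lay at a median of 1.18 above wild type in clf on the log2 scale in either iron condition, and their median difference was 0.01, or −0.27 without replicate 1 of wild type +Fe. SEP4, a floral MADS box gene of that list, had a difference of 3.16 (SE 1.13) at no more than 3.99 CPM in any library.

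**Figure D5:**
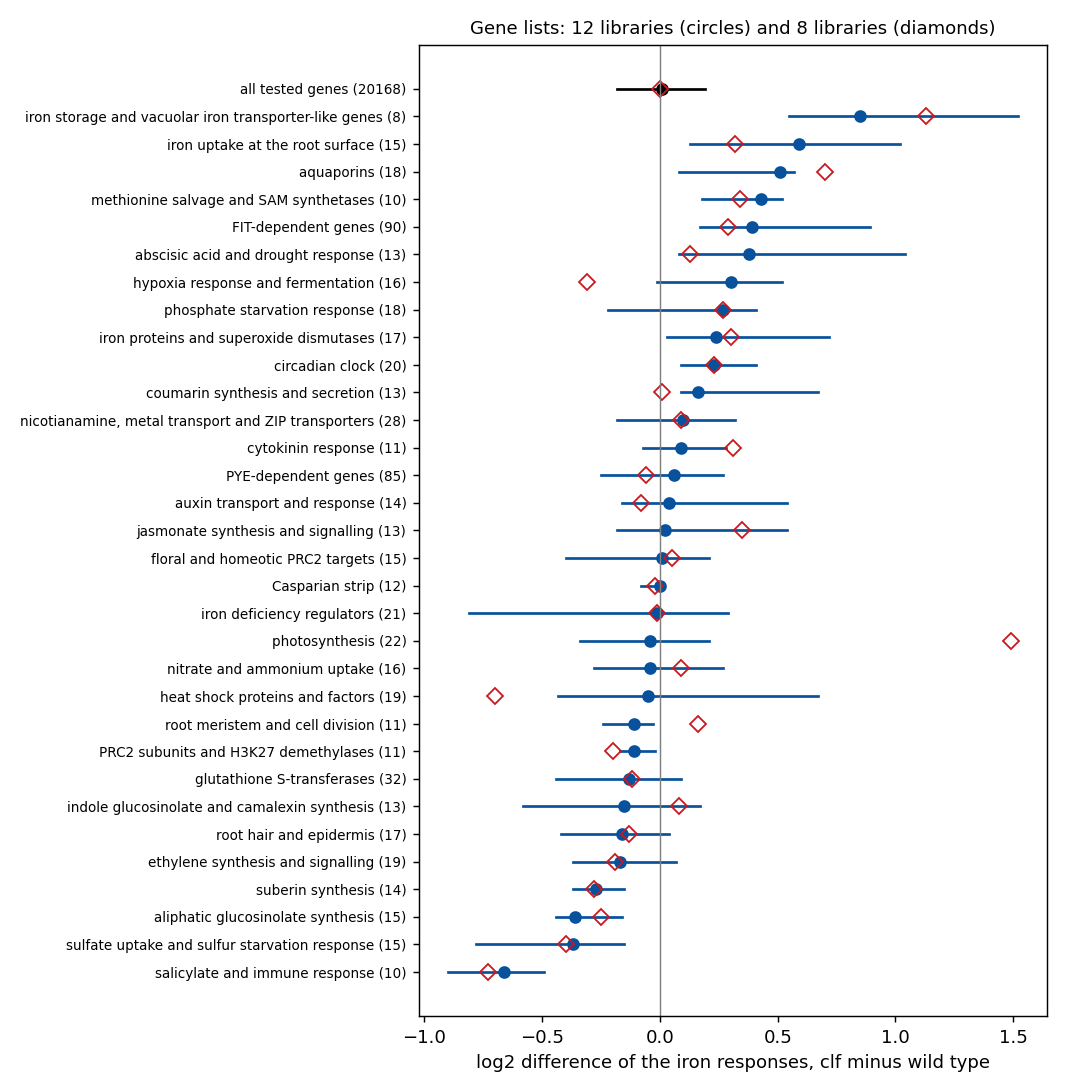
Log2 difference between the iron responses, clf minus wild type, for 30 gene lists, the FIT- and PYE-dependent lists and all tested genes, with the number tested in parentheses. Circles and bars give the median and quartiles over 12 libraries and diamonds the median over 8 libraries without the 4 that stood apart, where photosynthesis moves from −0.04 to 1.49.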

How the data were processed

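RNA from roots was measured in 12 libraries prepared with a stranded mRNA kit. The authors aligned the reads to TAIR10 and deposited raw counts for each gene (HTSeq, union mode), and TopHat2 is named in the submitters' notes. The deposited FPKM values were computed by the authors from these counts by gene length and library size. The strand setting and versions are not given in the sources used here.

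Under R 4.3.3, edgeR 4.0.16 was run on the counts after its default expression filter and TMM scaling, with a robust quasi-likelihood model of the 4 groups, and p-values were adjusted by Benjamini-Hochberg over 20168 genes. The interaction contrast gave the difference, and the SE is the log2 difference divided by the square root of F. CPM values are TMM-normalized. Alternatives used DESeq2 1.42.0, limma 3.58.1, log2(FPKM + 1) and log2(FPKM + 0.1), other filters and factors, a replicate block and fewer libraries. Members, lists and the 25 families of annotated products were chosen with earlier results of these data known. Named genes were the 10 smallest p in each direction among genes with at least 1 CPM in the highest group, up to 4 members of each list described, and a fixed set of iron genes. AT5G41280, bHLH38 and bHLH100 were added after their values were seen. List members whose reference symbol is an alias, such as FIT, were kept. Gene names and coordinates come from RefSeq TAIR10.1, which holds 31912 of the gene IDs.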

Additional observations from a re-analysis of the deposited data

Results flagged for a closer look

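In 4 of the named genes the iron conditions did not overlap in either genotype and moved in opposite directions. The log2 difference was −1.58 for CYP78A5 and −1.43 for KDR, which were higher under deficiency in wild type and lower in clf, and 1.79 for AT4G39675 and 0.69 for the F-box gene AT1G49360, which moved the other way. Over all tested genes, 21 (0.104%) had this form. The interaction test of these 4 genes did not pass the adjusted threshold in edgeR.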

How the results depend on the processing

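The 12 libraries gave 0 genes at an adjusted p of 0.05 in each direction. With voom and sample quality weights there were 8 more positive and 3 more negative genes, with log2(FPKM + 1) 4 more negative, with log2(FPKM + 0.1) 2, with log2(FPKM + 1) and no filter 4, with DESeq2 3, and with 8 libraries 348 and 103. At an unadjusted p of 0.05, against 160 and 160, voom gave 1604 and 994, 8 libraries 1762 and 1073 and the term for libraries that stood apart 399 and 350, while log2(FPKM + 1) gave 99 more positive, log2(FPKM + 0.1) 100 and log2(FPKM + 1) with no filter 324 more negative. Leaving out each library gave 0 genes at an adjusted p of 0.05 in each direction, and 95 to 495 more positive and 121 to 362 more negative at an unadjusted one. The highest counts came without replicate 1 of wild type +Fe. The average iron response called 1171 raised and 1130 lowered genes, against 3519 and 3429 with voom, 3623 and 3271 with 8 libraries, 2157 and 2372 with the term, and 730 to 1644 and 671 to 1435 with 1 library left out. With the genes called anew in each fit, the median of the lowered genes ran from 0.09 (without replicate 3 of clf −Fe) to 0.34. That of the raised genes ran from −0.16 to −0.01. The cause of these shifts was not tested.

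Of 142 genes followed, 7 changed sign in any of 24 alternatives. HSP23.6 moved from 2.53 to −0.74 with voom and −0.21 with log2(FPKM + 1) and no filter, and AT4G12410 from 1.06 to −0.02 with voom and −0.16 with 8 libraries. With 1 library left out, ERF1 ran from −4.23 to 0.18, JAZ2 from −0.30 to 1.42, OPR3 from −0.33 to 0.85, FIT from −0.10 to 0.74 and bHLH100 from −1.42 to 0.39. With the replicate number as a block, edgeR called 0 genes in each direction, and 189 and 190 at an unadjusted p of 0.05. Deviations of same-numbered libraries from their group means correlated at 0.150 to 0.616 among wild type +Fe, wild type −Fe and clf −Fe. Those of clf +Fe correlated with them at −0.398 to −0.345 for replicates 1 and 2 and 0.245 to 0.432 for replicate 3, so the numbers were not taken as pairing.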
